A study of Mus musculus with 25 samples.

Results

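The comparison set haematopoietic stem cells (HSCs) recovered after 10 old HSCs had been transplanted against HSCs taken directly from old mice. It used 2 libraries of 10 old cells and 2 old libraries, which are 4 of the 25 libraries of the series. All came from bone marrow of C57Bl/6 mice, the old group at 25 months of age. The 10-cell libraries are named in the labels by the number and the age class of the transplanted cells; the labels state neither the donors' age in months, the hosts, the time in the host, the sex of any animal nor how donor cells were separated from host cells afterwards. The other libraries used for reference below came from fetal liver at e14.5 (2), young bone marrow at 3.5 months (2), and HSCs recovered after 50 (1) or 500 (3) old cells or 10 (3), 50 (1) or 500 (1) young cells had been transplanted; the remaining 8 libraries came from young mice aged a further 6 months with 0, 2 or 4 doses of the cytotoxic drug 5-FU. The labels do not state whether each replicate was a different animal, so the p-values measure the spread between these libraries, which may be technical. The assay reads DNA only, and the identity of the cells was not checked by the expression of markers.

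DNA methylation in mammals sits mainly on the cytosine of CpG dinucleotides. Dnmt1 copies it to the new strand when DNA is replicated, Dnmt3a and Dnmt3b set it anew, and Tet enzymes oxidise it as a step towards removal. Most scattered CpGs are methylated, while CpG islands, the CpG-dense stretches at many gene starts, are mostly free of it. A transplanted HSC has to divide many times to refill the blood system of its host, so the comparison asks how the methylome of old HSCs stands after such a history. The assay, RRBS (reduced representation bisulfite sequencing), covers CpGs near the ends of restriction fragments: unmethylated cytosines are converted and read as thymine, methylated ones stay cytosine.

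Of all CpGs on the 19 autosomes, 1150125 had at least 5 reads in each of the 4 libraries, and 110791 tiles of 1000 bp held at least 3 of them. Total reads were 55350582 and 30637818 in the libraries of 10 old cells and 59708143 and 51487271 in the old libraries, and a tile held a median of 168 reads per library. Across tiles, both old libraries correlated at r = 0.9915, both libraries of 10 old cells at 0.9715, and libraries of different groups at 0.9619 to 0.9643; these are correlations across tiles, which are not independent replicates. At CpG-rich tiles that were unmethylated in young HSCs (30 or more CpGs, under 20%), the libraries of 10 old cells read a median of 0.351% and 0.429% and the old libraries 1.53% and 1.87%, so the groups also differed in their lowest level. With these floors taken out, the median difference over all tiles was -7.62 points, against -7.76 with them. On chromosome X, which was kept out of every test below except where it is named, the median level of CpG-rich tiles differed in the opposite direction, as described at the end.

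HSCs recovered from 10 transplanted old cells carried less methylation than old HSCs at most tiles. The mean over the 110791 tiles was 56.6% and 57.8% in the libraries of 10 old cells and 66.3% and 65.9% in the old libraries, so the groups did not overlap. The median difference of a tile was -7.76 points, with quartiles of -14.0 and -1.69, and 90.3% of tiles were below 0. A tile was called lost or gained at an adjusted p under 0.05 and a difference of at least 10 percentage points. By this rule 32459 tiles lost methylation (29.3% of those tested) and 658 gained (0.594%), so that 98.0% of changed tiles were losses. The median change was -17.5 points in lost tiles and 19.5 points in gained tiles. Losses of more than 50 points were seen at 204 tiles and gains of that size at 10. For the library means alone, an exact two-sided permutation test gave p = 0.333, the smallest p that 2 libraries against 2 allow. The tile calls need both old libraries: without old replicate 1 no tile was called (lowest adjusted p of the named tiles 0.230, 23715 tiles at an unadjusted p under 0.05), and without old replicate 2 none either (0.184, 27003 tiles), while the median difference stayed at -7.62 and -7.94. In such a fit the lone old library is assumed to vary like the rest.

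**Figure D1:**
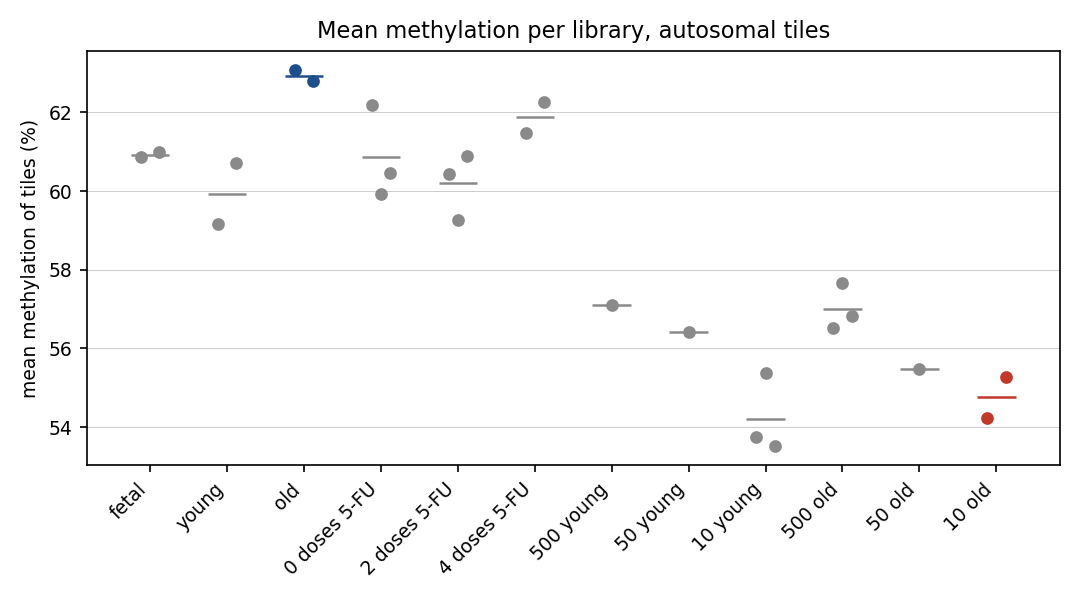
Mean methylation in percent over 90520 autosomal tiles measured in all 25 libraries, one point per library, with a line at the mean of each group; the axis does not start at 0. The libraries of 10 old cells (red) read 54.2% and 55.3%, the old libraries (blue) 63.1% and 62.8%.

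Over the 90520 tiles measured in every library, the 11 libraries from transplanted cells had means of 53.5% to 57.7%, and the 14 libraries from cells that had not been transplanted had means of 59.2% to 63.1%. The plot of mean methylation per library shows that no transplanted library reached the lowest of the others. The old libraries were the highest of the 25, at 63.1% and 62.8%. The libraries of 10 old cells differed more between themselves than the old libraries did. The median absolute difference of a tile between replicates was 3.61 points with 10 old cells and 2.10 points in old HSCs, and 0.649% of tiles differed by 30 points or more in the first pair against 0.0821% in the second. Among tiles with at least 50 reads in every library these shares were 0.159% and 0.0353%.

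Loss was most frequent where CpGs were sparse. With under 10 CpGs in the tile the share lost was 36.3%, with 10 to 29 CpGs it was 7.96%, and from 30 CpGs upwards it was 0.492%. Since CpG-rich tiles are mostly unmethylated and have little to lose, tiles that were at 80% or more in young HSCs were also set side by side. Among those, 44.3% of tiles with 3 CpGs lost methylation, 46.6% with 4, 36.3% with 6 to 9, 19.6% with 10 to 19, 6.80% with 20 to 29 and 5.73% with 30 or more. The median difference shrank alongside, from -12.2 points with 3 CpGs to -5.35 points with 30 or more. The lowest-covered library of a tile held a median of 58 reads with 3 CpGs and 732.5 with 30 or more. These median differences lie on both sides of the 10 points that a call needs. The part of depth and of this threshold in the shares was not tested.

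**Figure D2:**
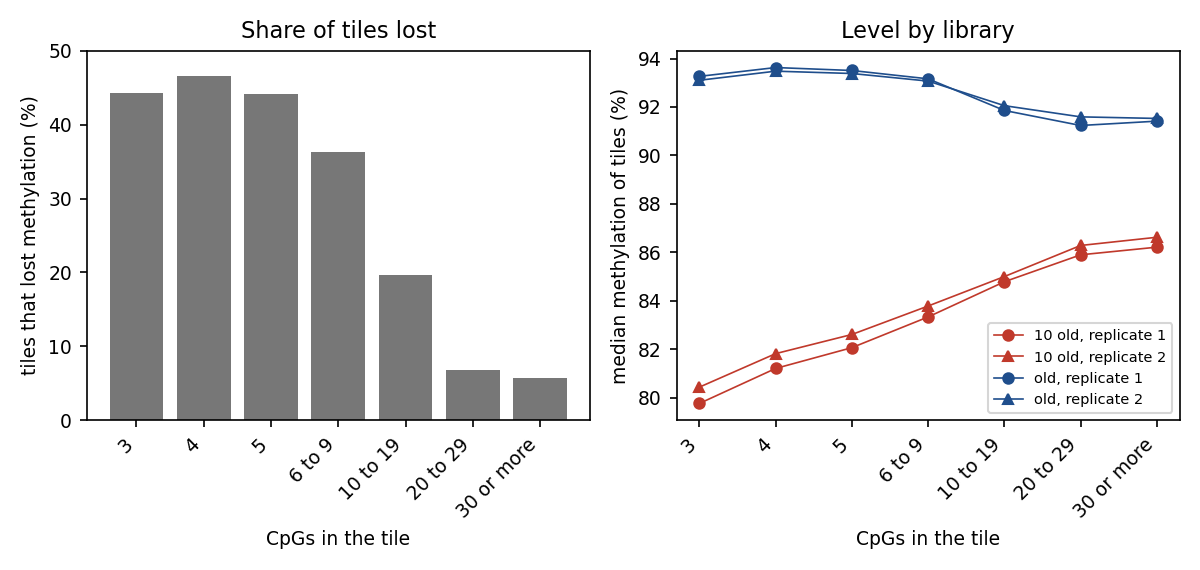
Tiles at 80% or more in young HSCs, by the number of CpGs in the tile. Left, the percent of tiles that lost methylation, from 44.3% with 3 CpGs to 5.73% with 30 or more; right, the median methylation in percent of each of the 4 libraries, on an axis that does not start at 0, where both libraries of 10 old cells (red) lie below both old libraries (blue) at every number of CpGs.

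Few changes fell at gene starts. Tiles within 1 kb of a placed gene start numbered 11516, of which 181 lost (1.57%) and 30 gained methylation (0.261%). Of the tiles there that were under 20% in young HSCs, 0.420% lost and 0.192% gained, whereas of the 153 tiles there that were at 80% or more, 34.6% lost. At 1 to 10 kb from a start 26% of tiles lost, and at 10 to 50 kb 33.6%. Loss was spread over the autosomes: between 27.6% (chromosome 19) and 31.1% (chromosome 9) of the tiles of a chromosome were lost, and between 0.382% (chromosome 12) and 0.822% (chromosome 6) were gained.

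Of 9445 gene starts with at least 3 CpGs measured in the 300 bases around them, 147 lay in a lost tile and 19 in a gained one, and the median difference was -1.07 points. Start regions that differed most are shown here by sequence, to show how few CpGs such a value rests on. Gdpd3 (a phosphodiesterase of glycerophospholipids), Muc20 (a mucin) and Slc22a3 (a transporter of organic cations) had the largest losses of these regions, Rhd (the Rh blood group antigen of red cells) is in the erythroid list examined below, and 5730596B20Rik, a long non-coding RNA, and Pde4b (a phosphodiesterase that breaks down cyclic AMP) were gains; all 6 were chosen after their values were seen. Each line gives the 250 bases before the start on the gene's strand, from RefSeq (GRCm38.p6), with the CpGs that had at least 5 reads in all 4 libraries in capitals.
Gdpd3: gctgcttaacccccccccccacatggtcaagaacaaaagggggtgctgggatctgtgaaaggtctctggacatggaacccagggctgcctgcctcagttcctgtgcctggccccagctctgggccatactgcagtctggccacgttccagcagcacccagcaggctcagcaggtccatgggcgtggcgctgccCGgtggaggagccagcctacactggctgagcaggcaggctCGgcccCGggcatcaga
Muc20: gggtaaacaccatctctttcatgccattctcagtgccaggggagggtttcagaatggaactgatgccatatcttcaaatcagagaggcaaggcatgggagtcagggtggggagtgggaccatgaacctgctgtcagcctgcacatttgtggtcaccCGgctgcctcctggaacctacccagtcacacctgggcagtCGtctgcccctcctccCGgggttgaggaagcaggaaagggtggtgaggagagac
Slc22a3: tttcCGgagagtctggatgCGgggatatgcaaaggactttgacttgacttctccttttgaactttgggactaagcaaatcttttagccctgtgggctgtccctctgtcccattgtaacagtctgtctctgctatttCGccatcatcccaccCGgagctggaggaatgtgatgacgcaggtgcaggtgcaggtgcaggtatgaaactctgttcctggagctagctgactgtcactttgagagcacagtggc
Rhd: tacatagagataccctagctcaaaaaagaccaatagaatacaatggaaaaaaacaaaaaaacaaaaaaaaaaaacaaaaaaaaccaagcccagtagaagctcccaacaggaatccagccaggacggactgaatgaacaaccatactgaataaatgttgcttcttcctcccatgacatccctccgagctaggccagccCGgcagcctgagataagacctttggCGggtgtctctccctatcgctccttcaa
Pde4b: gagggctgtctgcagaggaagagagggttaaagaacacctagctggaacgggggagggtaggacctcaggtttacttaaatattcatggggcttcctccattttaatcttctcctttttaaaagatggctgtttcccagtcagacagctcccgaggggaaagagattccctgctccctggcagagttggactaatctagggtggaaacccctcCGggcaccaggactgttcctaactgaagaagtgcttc
5730596B20Rik: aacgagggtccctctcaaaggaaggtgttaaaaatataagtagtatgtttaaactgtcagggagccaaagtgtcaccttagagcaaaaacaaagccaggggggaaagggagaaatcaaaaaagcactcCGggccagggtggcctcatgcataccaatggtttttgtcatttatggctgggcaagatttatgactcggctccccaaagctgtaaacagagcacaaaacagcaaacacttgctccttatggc

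By the spacing of their CpGs these windows fell on mm9 at chr7:133909678-133909927 (plus strand), chr16:32797522-32797771 (minus), chr17:12700571-12700820 (minus), chr4:134420201-134420450 (plus), chr4:102262198-102262447 (plus) and chr6:52126904-52127153 (plus), in the order shown. Of the 14 CpGs in capitals, 9 stand in the sequence ccgg. At the Gdpd3 start the 3 CpGs together read 31.2% and 34.8% with 10 old cells and 88.7% and 97.3% in old HSCs, with as few as 37 reads in a library. At Muc20, 6 CpGs read 23.1% and 30.5% against 75.8% and 73.8%, and each of them was lower with 10 old cells, by between -33.4 and -62.8 points. At Slc22a3, 4 CpGs read 10.4% and 20.7% against 69.8% and 54.1%. All of these groups were apart, and all these start regions were mostly methylated in old HSCs, which is unlike a CpG island.

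At Rhd, 4 CpGs on both sides of the start read 42.4% and 50.5% with 10 old cells against 90.9% and 86.3% in old HSCs. The capital CpGs of the Rhd line flank the letters AGATAAG, a form of the motif of GATA factors, which begins 43 bases before the start, at position -43 on the gene's strand; the same letters occur on either strand in 2.73% of the 32619 RefSeq start windows of that length. The CpGs 53 and 28 bases before the start, at positions -53 and -28, differed by -39.6 and -46.0 points. In the opposite direction, the 4 CpGs at 5730596B20Rik read 77.7% and 90.9% against 47.1% and 39.5%, and those at Pde4b 48.0% and 62.9% against 32.1% and 38.0%, with adjusted p of 0.00791 and 0.0286 for their tiles.

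The 10 largest losses, with at least 5 CpGs and 30 reads in every library and at most one per 10 kb, ran from -54.8 to -68.9 points, with adjusted p of 0.00165 to 0.00245. Every one of their 56 CpGs was lower with 10 old cells. The old libraries read 67.0% to 96.2% at these tiles and the libraries of 10 old cells 8.57% to 40.1%, so the groups were wide apart. Both young libraries lay below both old libraries at all 10 tiles, which were chosen in part for high old values. Over all tiles the old mean was above both young libraries at 59.5%. All 9 other libraries from transplanted cells lay below both old libraries at all 10.

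Inside Kit, the receptor for stem cell factor that HSCs need, the tile chr5:76004001-76005000 had 9 CpGs, 32985 bp beyond the placed start. It read 28.1% and 32.2% with 10 old cells and 86.1% and 88.1% in old HSCs, over 146 to 302 reads (difference -56.9 points, adjusted p = 0.00165). The young libraries read 56.0% and 66.9% there, the library of 50 old cells 29.8%, and those of 500 old cells 25.6% to 48.1%. Old HSCs thus stood above both young libraries, and every library from transplanted old cells stood below them.

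The largest loss of all, at chr17:26191001-26192000, had no placed start within 50 kb; it lay between the starts of Capn15 and Pgap6. There 10 old cells gave 13.1% and 34.4% and old HSCs 96.2% and 89.1%, while young HSCs gave 35.3% and 24.1%, close to the level after transplantation. Within Palm, which encodes the membrane-associated protein paralemmin, the tile chr10:79260001-79261000 read 13.8% and 17.4% against 69.9% and 77.0%. Upstream of Tatdn2, which encodes a deoxyribonuclease-like protein, chr6:113640001-113641000 read 8.57% and 14.3% against 67.0% and 70.4%. Young HSCs read 17.4% and 27.9% at this Tatdn2 tile and fetal HSCs 13.7% and 16.8%, so the old libraries were the high ones.

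Near Ccnb2, a cyclin of mitosis, chr9:70243001-70244000 read 29.8% and 20.9% against 82.6% and 87.2%, with the tile 25361 bp from the placed start. Within the span of Mrtfa, a coactivator of serum response factor, chr15:80857001-80858000 fell from 90.3% and 89.9% to 40.1% and 26.7%. The tile chr11:79466001-79467000, with no placed start within 50 kb, read 26.9% and 18.5% against 90.0% and 67.9%, so here the old libraries themselves were well apart. The remaining named losses lay near Trim56, a ubiquitin ligase of antiviral defence (28.3% and 35.7% against 86.7% and 88.1%), near Gpc2, a glypican (36.6% and 26% against 85.7% and 86.9%), and within Lrpprc, a factor for mitochondrial RNA (30.6% and 17.4% against 74.3% and 83.2%).

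**Figure D3:**
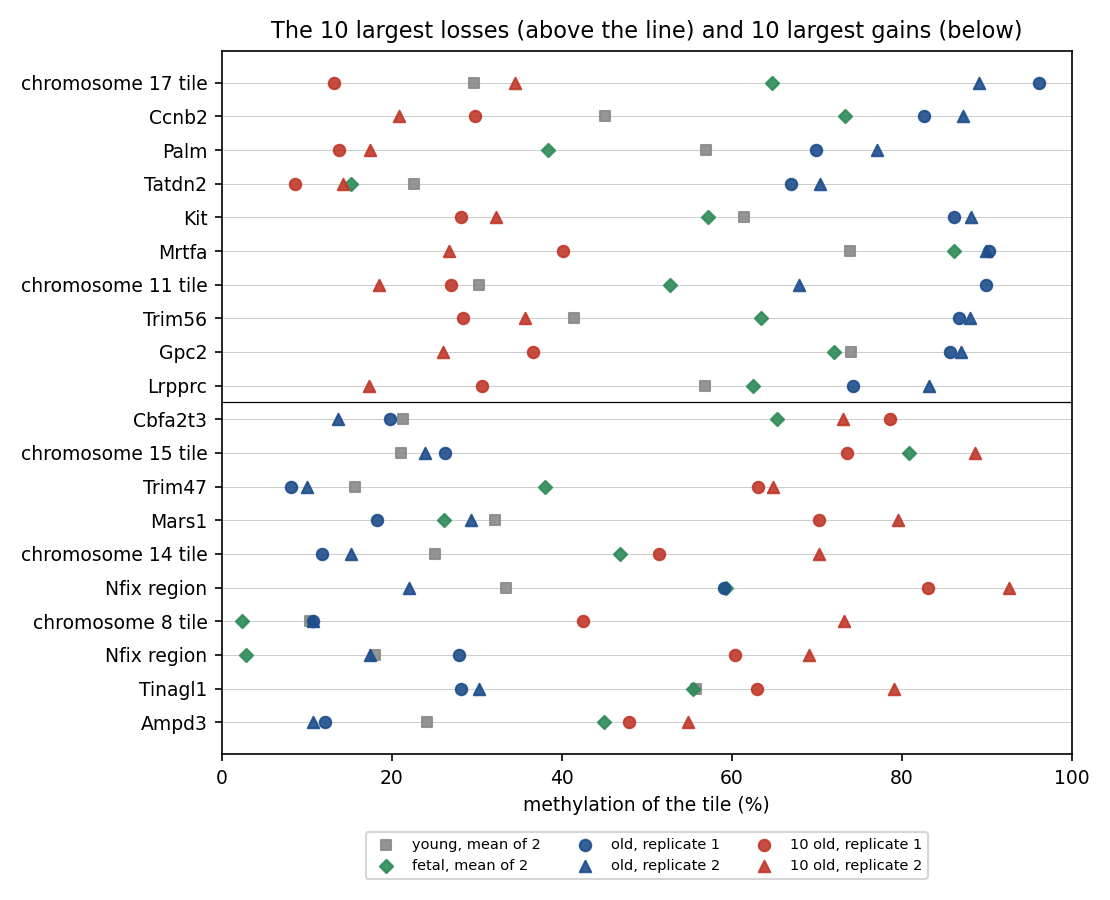
Methylation in percent of the 10 tiles with the largest loss (above the line) and the 10 with the largest gain (below it), one row per tile, with each library of 10 old cells (red) and old HSCs (blue) and the means of the young (grey) and fetal (green) libraries. Every red point lies to the left of every blue point in the upper rows and to the right in the lower rows, by which the tiles were chosen.

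The 10 largest gains ran from 39.9 to 59.1 points, with adjusted p of 0.00165 to 0.0102, and each of their 93 CpGs was higher with 10 old cells. All 9 other libraries from transplanted cells lay above both old libraries at 9 of the 10 tiles, which were chosen in part for low old values. The 0-dose 5-FU libraries, from cells not transplanted, also lay above both old libraries at the tiles of Cbfa2t3, Trim47, Tinagl1 and Ampd3. So they did at chr10:126764001-126765000 and chr14:48015001-48016000, and at chr15:75649001-75650000 in those with a value. They did not all do so at chr8:87245001-87246000, chr8:87308001-87309000 and chr8:107792001-107793000. The largest gain was in Cbfa2t3, a corepressor of the ETO family that acts with HSC transcription factors, at chr8:125198001-125199000, 3075 bp from the placed start. It read 78.6% and 73.1% with 10 old cells and 19.7% and 13.7% in old HSCs, over 167 to 314 reads (59.1 points, adjusted p = 0.00165). Young HSCs read 23.0% and 19.6%, close to old HSCs, and fetal HSCs 63.0% and 67.5%, between both groups.

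Trim47, a ubiquitin ligase of the tripartite motif family, had the second gain with a placed gene. Its tile chr11:115969001-115970000 read 63.1% and 64.8% with 10 old cells and 8.18% and 9.95% in old HSCs. The gain reached beyond that tile: from chr11:115967001 to 115971000, 3 gained tiles with 29 CpGs read 59.4% and 59.8% together, against 17.4% and 18%. Replicates were close to each other in both groups of this run.

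A second run of 3 gained tiles lay at chr8:87295001-87298000, where Nfix is known to lie on mm9. Together its 27 CpGs read 18.1% and 43.7% with 10 old cells against 10.1% and 10.2%, so the libraries of 10 old cells differed there. Nfix encodes a nuclear factor I transcription factor that HSCs need to persist after transplantation; the locus was added to those examined after its tiles had been seen. Of its 21 tiles 7 gained and 1 lost methylation, against 0.594% gained and 29.3% lost of all tiles. The tile chr8:87308001-87309000, with 27 CpGs and 460 to 1335 reads, read 60.4% and 69.1% with 10 old cells, 27.9% and 17.4% in old, 17.4% and 18.7% in young and 2.90% and 2.84% in fetal HSCs. At chr8:87245001-87246000 the libraries of 10 old cells read 83.1% and 92.6% and the old libraries 59.1% and 22%, so that the size of that gain depends on which old library is used. Without old replicate 2 it was 28.7 points, against 47.3 points with both.

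Between the starts of Mars1 and R3hdm2, where Arhgap9, Gli1, Inhbe and Inhbc also lie without a placed start, chr10:126764001-126765000 rose to 70.3% and 79.6% from 18.3% and 29.3%. The other gains near a placed start were at Tinagl1 (a matrix glycoprotein), where chr4:129851001-129852000 read 63.0% and 79.1% against 28.1% and 30.3%, and just ahead of Ampd3 (AMP deaminase), where chr7:117911001-117912000 read 47.9% and 54.8% against 12.1% and 10.7%. At Tinagl1, young HSCs read 61.3% and 50.2%, so old HSCs were the low ones. Without a placed start within 50 kb, chr15:75649001-75650000 rose to 73.5% and 88.6% from 26.3% and 23.9%, chr14:48015001-48016000 to 51.5% and 70.2% from 11.8% and 15.2%, and chr8:107792001-107793000 to 42.5% and 73.2% from 10.7% and 10.8%. The libraries of 10 old cells were far apart at the last of these.

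Known genes of blood and development were examined by 14 lists, over tiles within a gene or up to 10 kb on either side of its start. Of 347 list entries 139 had a placed start and 137 had a tested tile, so the counts describe these genes and not the whole lists. In 12 lists the share of lost tiles was below the 29.3% of all tiles, and in 8 the share of gained tiles was above 0.594%. Most lists had only 0 or 1 gained tile, too few to set their share against 0.594%.

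Transcription factors of stem cells combined the usual share of losses with many gains. Of 184 tiles at 12 genes 55 lost (29.9%) and 13 gained methylation (7.07%), with a median difference of -6.17 points. The gains lay in 6 genes: 6 in Prdm16, 2 each in Gata2 and Msi2, and 1 each in Gfi1, Hlf and Meis1. Prdm16, a regulator that HSCs need to maintain themselves, had 59 tiles, of which 26 lost and 6 gained. Its largest gain, at chr4:153960001-153961000, read 72.4% and 79.2% with 10 old cells, 21.6% and 26.4% in old, 38.4% and 40.5% in young and 77.8% and 69.3% in fetal HSCs (51.8 points, adjusted p = 0.00201). The neighbouring tile, which starts at 153959001, read 72.7% and 52.2% against 29.5% and 29.1%.

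Msi2, an RNA-binding protein that sustains HSCs, gained at adjoining tiles: chr11:88552001-88553000 read 30% and 28.8% against 5.40% and 5.80% (23.8 points, adjusted p = 0.00414), while 10 of its 33 tiles lost. In Meis1, a partner of Hox proteins, chr11:18907001-18908000 rose to 26.9% and 31.1% from 5.45% and 3.70%. In Hlf, a regulator of HSC quiescence, chr11:90209001-90210000 rose to 50.9% and 60.5% from 27.3% and 29.3%; fetal HSCs read 72.4% and 68.3% there. Ahead of the start of Gata2, a factor essential to HSCs, chr6:88141001-88142000 rose to 75.3% and 68.7% from 45.2% and 52.9%. In each of these tiles both libraries of 10 old cells lay above both old libraries. Losses led elsewhere: Etv6, a repressor needed by adult HSCs, lost at 10 of 17 tiles, with 40% and 27.5% against 72.1% and 65.7% at its largest, and Runx1, a founder factor of the blood system, at 6 of 22, with 48.3% and 66.7% against 93.4% and 95.7%.

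**Figure D4:**
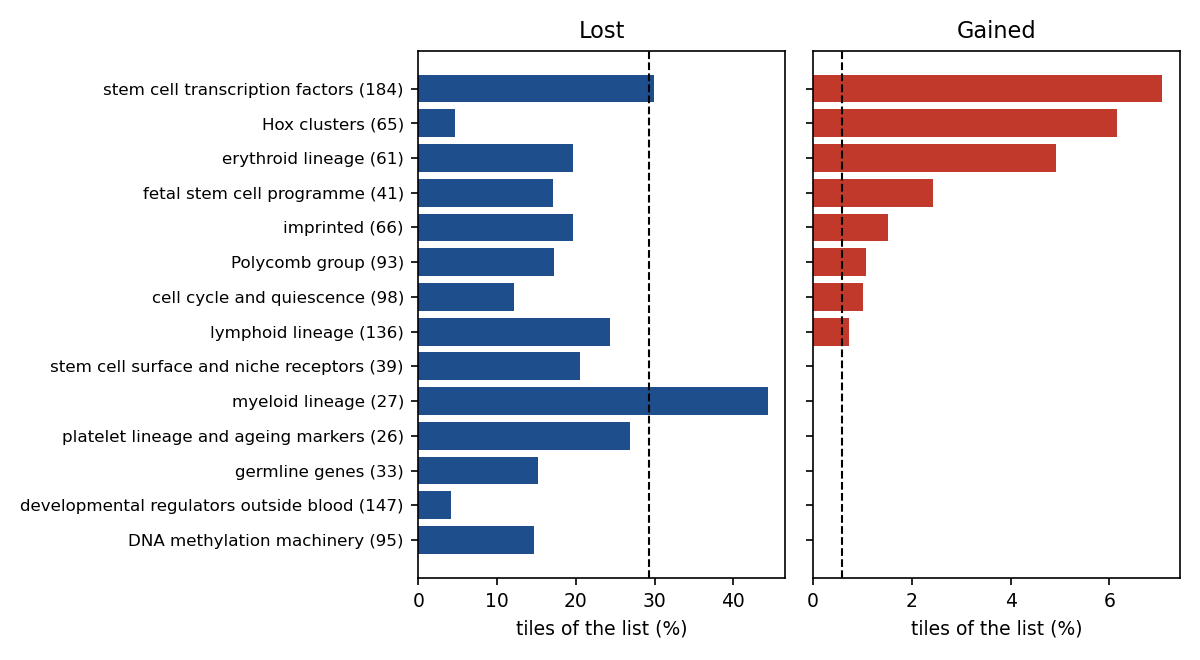
Percent of the tiles of each gene list that lost (left) or gained (right) methylation, with the number of tiles in parentheses; the dashed lines mark the 29.3% lost and 0.594% gained of all tiles tested, and the axes of the panels differ. Stem cell transcription factors had the highest share gained, 7.07%, and the myeloid list, with 27 tiles, the highest share lost, 44.4%.

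Of 39 tiles at 7 genes for receptors and surface markers of stem cells 8 lost (20.5%, below the 29.3% of all tiles) and 0 gained, in too few tiles to set against the 0.594% gained of all tiles. Besides Kit, the tile of Fgd5, a marker of HSCs, at chr6:91986001-91987000 fell to 56.0% and 30% from 89.3% and 91.4%, over as few as 30 reads, and that of Flt3, the receptor that marks early progenitors, at chr5:148200001-148201000 fell to 26.1% and 26.5% from 51.2% and 43.8%.

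Among lineage genes the myeloid list lost most often, at 12 of 27 tiles of 4 genes (44.4%), with a median difference of -10.1 points. Irf8, which directs monocyte fate, lost at 7 of 11 tiles and read 62.5% and 59.7% against 92.4% and 93.7% at chr8:123271001-123272000 (-31.9 points, adjusted p = 0.00301). Cebpb, a factor of emergency granulopoiesis, lost at 3 of 6 tiles; chr2:167513001-167514000 read 34.6% and 61.1% against 75.8% and 73.3%, and with limma the adjusted p was 0.0512. Lymphoid genes lost at 33 of 136 tiles (24.3%) and gained at 1, in Gata3. Lef1, a factor of T and B cell development, lost at 9 of 19, and in Notch1, the receptor that sets T cell fate, chr2:26338001-26339000 fell to 18.2% and 32.9% from 65.5% and 77.0%. Satb1, a chromatin organiser of T cells, fell at chr17:51970001-51971000 to 44.3% and 26.3% from 72.8% and 76.6%.

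Erythroid genes lost at 12 of 61 tiles (19.7%) and gained at 3, all in Zfpm1, the cofactor of GATA1, which also lost at 5 of its 17 tiles. The Rhd tile at chr4:134420001-134421000, which holds the start shown above, read 47.2% and 47.6% against 91.0% and 86.7% (-41.5 points, adjusted p = 0.00214). Genes of the platelet lineage and of HSC ageing lost at 7 of 26 tiles (26.9%) and gained at 0. Itga2b, the CD41 integrin of megakaryocytes, read 61.3% and 75.4% against 93.7% and 96.8% at chr11:102322001-102323000, and Ehd3, a membrane trafficking protein, 44.3% and 72.3% against 92.7% and 94.5% at chr17:74173001-74174000. The libraries of 10 old cells were far apart at this Ehd3 tile, and both lay below both old libraries.

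Genes of the methylation machinery lost at 14 of 95 tiles (14.7%) and gained at 0. Within Dnmt3a the tile chr12:3911001-3912000 read 63.8% and 67.5% against 96.2% and 97.6%, and within Dnmt3b chr2:153502001-153503000 read 56.8% and 62.1% against 91.5% and 90.1%. In the span of Dnmt1, chr9:20706001-20707000 fell to 13.5% and 7.41% from 51.3% and 44.7%, with 27 to 150 reads; another start, that of Ppan, lay nearer. Uhrf1, which guides Dnmt1 to new strands, had 11 tiles and 0 calls.

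Of the Polycomb group, which silences developmental genes, 16 of 93 tiles lost (17.2%) and 1 gained, in Jarid2. Phc2 lost at 7 of 23, the largest at chr4:128425001-128426000 with 45.3% and 69.4% against 90.2% and 89.7%. Genes of cell cycle and quiescence lost at 12 of 98 tiles (12.2%). Btg2, an antiproliferative gene, had the largest difference of any named list gene: upstream of its start, chr1:135983001-135984000 read 17.1% and 32.4% against 88.0% and 88.0% (-63.2 points, adjusted p = 0.00179), with 3 CpGs and 34 to 108 reads. In Cdk6, the G1 kinase that sets how fast HSCs leave quiescence, chr5:3382001-3383000 fell to 18.9% and 37.5% from 76.0% and 75.3%. Rbl2, a pocket protein of the retinoblastoma family, fell upstream of its start to 25.0% and 32.3% from 67.5% and 73.9%. Cdkn2a, the locus of p16 and p19, had no loss and 1 gain, at chr4:88939001-88940000, with 64.8% and 59.5% against 41.4% and 43.4% in old, 29.6% and 31.5% in young and 9.13% and 10.6% in fetal HSCs.

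Developmental regulators outside blood, most of which are silent in HSCs, lost at 6 of 147 tiles (4.08%), in Pax2, Pax6 and Pax7, and gained at 0. The median difference was -0.791 points. The mean level of a gene in old HSCs was 3.42% (Isl1) to 33.3% (Pax7), and its part in the share lost was not tested. Of all tiles under 20% in young HSCs, 1.52% lost methylation. Pax7, a muscle regulator, had the largest loss of these, 44.7% and 53.6% against 90.7% and 89.7% at chr4:139316001-139317000. Germline genes, many of which are held silent by methylation at their start, lost at 5 of 33 tiles (15.2%). The tile at the start of Sycp1, a protein of the synaptonemal complex, was one of these losses. It read 78.7% and 79.5% against 92.6% and 93.0% (-13.7 points, adjusted p = 0.0191). Genes of the fetal stem cell programme lost at 7 of 41 tiles and gained at 1, in Hmga1; within Igf2bp2, an RNA-binding protein, chr16:22100001-22101000 fell to 54.1% and 55.3% from 98.5% and 93.9%.

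Over the whole length of imprinted genes and 10 kb on either side of their starts, 13 of 66 tiles lost (19.7%) and 1 gained, in Gnas. Within Igf2r, a receptor that clears Igf2, chr17:12891001-12892000 fell to 59.5% and 75.5% from 98.9% and 95.8%.

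Imprinted control regions, which are short stretches within such genes, differed from old HSCs in both directions, by -24.4 to 14.3 points. As background, these regions carry methylation on one parental copy only, set in the germ line and kept through every division. Reads of both kinds should then be similar in number. Of 22 regions placed from their known mm9 positions, 21 had a tested tile, and 19 of these were between 30% and 70% in fetal HSCs. Not all were intermediate in adult HSCs. The young mean of a region ran from 7.44% (Impact) to 87.8% (Mcts2), and Mcts2 read 92.7% and 86.5% in the old libraries. The median difference of a region was 1.97 points, with 14 regions higher and 7 lower with 10 old cells, against a median of -7.76 points for all tiles. For all tiles at 20% to 80% in young HSCs the median was -12.7 points with under 10 CpGs. It was -3.49 points with 10 to 29 CpGs and 2.19 points with 30 or more. Of the 32 tiles of the imprinted regions 2 lost and 1 gained, against 29.3% lost and 0.594% gained of all tiles.

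At the Plagl1 region, with 34 CpGs, the libraries of 10 old cells read 30.9% and 34.9% and the old libraries 30.6% and 34.6%. At the Nespas-Gnasxl region, with 75 CpGs in 4 tiles, they read 44.7% and 49.7% against 44.2% and 46.4%, and at the paternally methylated H19 region 59.1% and 66.2% against 60.1% and 64.0%. The groups overlapped at these 3 regions, which were among those that differed least. The tile that gained was at Nap1l5, with 71.2% and 69.4% against 59.1% and 53.0%. Those that lost were at Impact, with 8.26% and 27.1% against 48.0% and 36.2%, and at the Igf2r-Airn region, where chr17:12934001-12935000 read 27.0% and 19.8% against 50.2% and 46.0%. At Impact the young libraries had a mean of 7.44%, below both groups.

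The Hox clusters, which hold the genes of body axis patterning and of HSC self-renewal, had 193 tiles, of which 13 lost (6.74%, against 29.3% of all tiles) and 9 gained (4.66%, against 0.594%). The pooled level of a cluster was low, at 6.49% to 14.3% in the 4 libraries, and its part in the share lost was not tested. Of all tiles under 20% in young HSCs, 1.52% lost and 1.22% gained methylation. Hoxa had 7 gains and 3 losses in 46 tiles, and the megabase that holds it had 8 gained tiles, which no other megabase exceeded. At Hoxa5, a homeobox gene of the cluster, the tile chr6:52153001-52154000 read 58.6% and 61.9% with 10 old cells, 28.3% and 29.1% in old, 25.7% and 29.3% in young and 9.29% and 6.16% in fetal HSCs (31.5 points, adjusted p = 0.00511). The libraries with 0 doses of 5-FU, from cells not transplanted, read 55.7% to 60.3% at this Hoxa5 tile. Those of 500 old cells read 49.8% to 77.4%, and that of 500 young cells 26.5%. The next tile, with 37 CpGs and 701 to 1927 reads, rose from 28.9% and 28.8% to 47.4% and 61.3%, and the gained start of 5730596B20Rik lies in the same cluster. Hoxb had 8 losses and 1 gain in 56 tiles, Hoxc 0 losses and 1 gain in 46, and Hoxd 2 losses and 0 gains in 45. Of the Hoxd losses, the larger was at Hoxd4, with 54.8% and 58.0% against 87.9% and 78.3%.

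The tiles were chosen from the 4 libraries of this comparison, so the levels in other libraries are a separate reading of them. Over the 30977 lost tiles with a value in every group named here, the median level was 88.7% in young and 89.3% in fetal HSCs, 77.7% after 50 old cells, 80.8% after 500 old cells and 75.8% after 10 young cells; the libraries that chose the tiles read 92.8% (old) and 74.6% (10 old cells). The mean with 10 old cells was below both young libraries at 90.7% of the lost tiles, which were chosen for low values in these libraries, and at 72.4% of all tiles. Over 638 gained tiles the medians were 14.8% in old, 38.0% with 10 old cells, 19% in young, 29.1% in fetal, 36.3% after 50 old, 32.1% after 500 old and 34.3% after 10 young cells.

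Whether the response depended on the age of the donor was asked by an interaction of transplantation of 10 cells with donor age, on 9 libraries and 99475 tiles. The median effect of a tile was -7.08 points with old cells (against old) and -4.90 points with young cells (against young). No tile passed in either direction by the same rule (0.0% called), with 4696 tiles at an unadjusted p under 0.05; limma also called 0, with 7584. Leaving out 1 library gave 8 tiles without replicate 1 of 10 young cells, 2 without replicate 3 and 0 otherwise. At Cbfa2t3 the effects were 59.1 and 55.9 points and at Trim47 55.2 and 54.6 points. At Tinagl1 they were 41.8 points with old and 0.445 points with young cells (adjusted p = 0.243 for the difference), and at chr17:26191001-26192000 -66.9 and -0.370 points (adjusted p = 0.310). A p above the threshold does not show that the effects are alike.

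On chromosome X, gains were frequent. Of 4955 tiles there 638 gained (12.9%) and 1270 lost methylation (25.6%). Among its 135 CpG-rich tiles, those with at least 30 CpGs, 74 gained (54.8%). The median level of these CpG-rich tiles was 24.2% and 29.2% with 10 old cells and 2.80% and 3.08% in old HSCs. With the reads of the same tiles pooled, the level was 39.5% and 44.2% against 42.1% and 40.4%, and the groups overlapped. By the median, all 11 libraries from transplanted cells lay between 11.9% and 29.2%, and all 14 others between 1.52% and 3.20%. As background, in female mammals the CpG islands of the inactive X chromosome are methylated, and in males those of the one X chromosome mostly are not. Reads on chromosome X made up 3.32% and 3.59% of all reads with 10 old cells and 3.00% and 3.13% in old HSCs. Reads listed on chromosome Y made up 0.0370% and 0.0436% against 0.0586% and 0.0624%, with 0.0276% to 0.0463% in all libraries from transplanted cells and 0.0462% to 0.0624% in the others. The labels give no sex, so a difference in sex between donors cannot be told apart from transplantation, and its part in the autosomal differences was not tested.

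**Figure D5:**
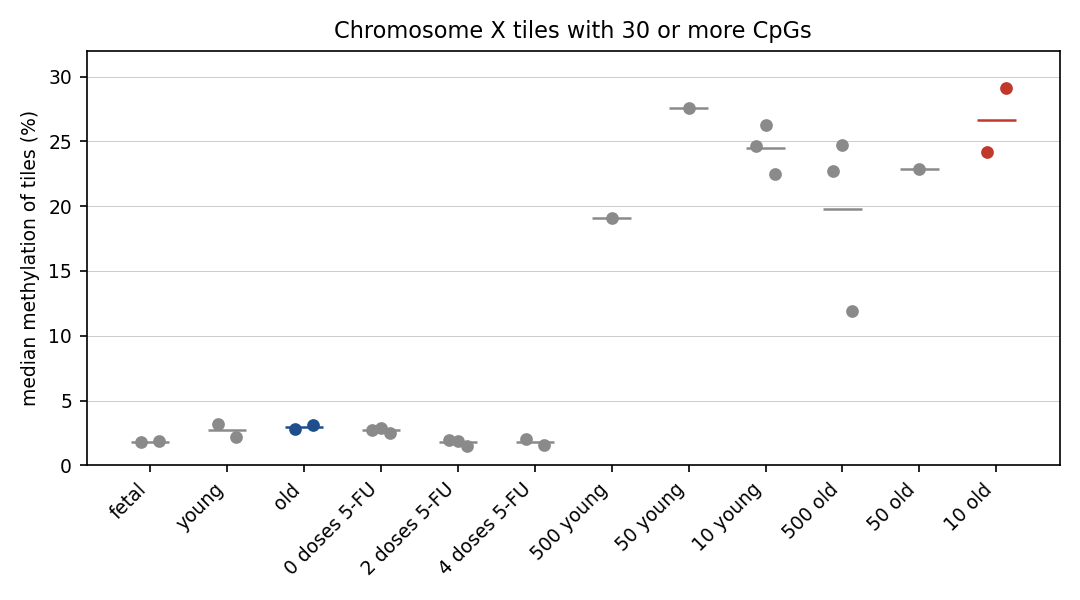
Median methylation in percent of the 135 chromosome X tiles with 30 or more CpGs, one point per library, with a line at the mean of each group. The libraries of 10 old cells (red) lie at 24.2% and 29.2% and the old libraries (blue) at 2.80% and 3.08%; every library from transplanted cells lies above every other library.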

How the data were processed

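HSC libraries were made by an RRBS protocol for few cells (from the labels' protocols). The submitters' processing notes name the build mm9. Aligner, caller, read filters and handling of duplicates: not given in the sources used here. Each deposited file lists CpGs with methylated over total reads and a score, a whole number that the authors made from the methylated share; the reads were used and the deposited score was not tested. Reads without molecular identifiers are not independent molecules, so counting errors are lower limits.

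CpGs with at least 5 reads in all 4 libraries were summed in autosomal tiles of 1000 bp with at least 3 CpGs. Methylated and total reads were fitted by a quasi-binomial model with Williams' weights (correlation 0.00783). The dispersion was moderated with limma's squeezeVar on a trend of depth (residual and prior degrees of freedom 2 and 9.87) and held at 1 or more. All tiles entered the Benjamini-Hochberg adjustment of the F test p-values. The fit was tested on simulated reads. Tools were Python 3.11.15, numpy 2.4.6, pandas 2.3.3, scipy 1.17.1, matplotlib 3.10.9, R 4.3.3 and limma 3.58.1.

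No mm9 annotation was used. Gene starts were placed by matching the CpG spacing of RefSeq GRCm38.p6 start sequences to the CpG positions in the files; RefSeq positions limited the search to 10 Mb and spacing to neighbouring starts checked it. No coordinate was converted. This placed 10992 starts of 9672 genes, 36.1% of those searched, and none on chromosome 18. Distances to a start are from the tile's nearer edge, and spans use RefSeq gene lengths. Imprinted regions, Hox clusters and Nfix were placed by known mm9 positions, not checked against an annotation.

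Named tiles are the 10 largest losses and gains with at least 5 CpGs and 30 reads per library, groups apart, and the 3 genes of each list with the largest difference at a changed tile. Members and lists were chosen with earlier results of these data known. Alternatives covered depth, tile size and CpG number, limma on arcsine values, a fit of 15 libraries, the replicate number as a block, each library left out, deep CpGs, chromosome X and an offset. Removing the floor, means over CpGs and the interaction were added after the data were seen.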

Additional observations from a re-analysis of the deposited data

Results flagged for a closer look

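Chromosome X, which no autosomal comparison used, held 638 gained tiles of 4955. It is listed because the median level of its CpG-rich tiles was higher in both libraries of 10 old cells (24.2% and 29.2%) than in both old libraries (2.80% and 3.08%). The pooled level of the same tiles overlapped, at 39.5% and 44.2% against 42.1% and 40.4%.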

How the results depend on the processing

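The direction of the median difference, and 96.3% to 98.7% of the changed tiles being losses, held under every alternative that called tiles. Counts of 32459 lost and 658 gained tiles became 9354 and 299 with tiles of 300 bp (median -5.16 points) and 11609 and 308 with a difference of 20 points. They became 50667 lost with tiles of 1 or more CpGs (median -10.6 points) and 18481 lost with the fit of 15 libraries. With chromosome X included, 1311 tiles were gained, of which 638 lay on chromosome X. A difference of 20 points lowers counts by construction. Fewer tiles (90382 with 15 libraries) do so too, but how much of that fall they account for was not tested. The cause of the other shifts was not tested. With the replicate block 0 tiles were lost and 0 gained, with 44160 at an unadjusted p under 0.05. The deviations of replicates with the same number correlated at -0.0438. A correlation near 0 cannot show whether these samples shared more than a number. Leaving out 1 library gave 0 to 42405 lost and 0 to 1110 gained tiles, 0 whenever an old library was left out, and 0 to 8 tiles for the interaction. No named tile reversed. By limma the tiles of Ddx4 and Cebpb, and by the fit of 15 libraries those of Ddx4, Pax6 and Gnas, no longer passed; those of Ddx4 and Pax6 also failed with tiles of 1 or more CpGs, and 6 without replicate 1 of 10 old cells (Pax2, Pax6, Ddx4, Asz1, Cebpb and Irf4). Leaving out a library chose the CpGs anew from the libraries left. Tiles of 300 bp gave no value for the named tiles. A placed start lay within 50 kb of 13 of the 20 largest changes and within 10 kb of 6. With 2 libraries a group, and a median of 168 reads per tile and library, small differences at shallow tiles are not detectable.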

Other observations

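Genes with many tiles differed in how much of their length lost methylation; the genes named here were picked after their values were seen. Among 314 genes with 15 or more tiles, 310 had a lost tile and the median share lost was 35.0%. Ctdspl, a phosphatase that restrains cell cycle entry, lost at 15 of 20 tiles, Hspg2, the matrix proteoglycan perlecan, at 24 of 36, and Cux2, a homeodomain factor, at 25 of 41. Fgf12 and Lhx2 lost at 0 of 17 and 0 of 15. The median level of the Lhx2 tiles was 4.18% in old HSCs and 5.73% with 10 old cells, and that of the Fgf12 tiles 87.1% and 83.3%. The Fgf12 tiles held a median of 16 CpGs. Their median difference was -6.62 points, against -7.76 points for all tiles and the 10 points that a call needs.

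Of 2099 megabases with at least 20 tiles, 2098 had a median difference below 0. The share of lost tiles ran from 0% to 62.5%, with a median of 29.1%. Gained tiles occurred in 461 of them.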
